A study of Rattus norvegicus with 9 samples.

Results

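Prostates of BPH+ghrelin rats, which had been castrated and given both dihydrotestosterone and ghrelin, were compared with prostates of sham rats, which kept their testes and got neither. The comparison took the 3 arrays of each group, 6 of 9 in all, and the probes that were well above background on at least 3 of these 6 arrays, which left 21469 of 30356 probes. These probes covered 11311 genes with a symbol, and 8222 probes had none. The BPH+ghrelin rats were castrated males that got dihydrotestosterone under the skin (3 mg/kg daily for 4 weeks) and rat ghrelin by gavage (20 nmol/kg daily for the last 2 weeks). Sham rats underwent an operation without removal of the testes and got the vehicles of both agents, corn oil and water. All rats were Sprague Dawley males bought at 6 weeks of age, the study kept 8 per group, and the sources used here do not say which 3 were put on arrays or which lobe of the prostate was taken. A legend of the study gives another dose and route of ghrelin than its methods. The 3 BPH arrays (castration and dihydrotestosterone without ghrelin) entered the normalization and the estimate of the spread, but not this difference. Castration, dihydrotestosterone and ghrelin all separate these groups, so their parts in a difference cannot be told apart here. Values of BPH against sham are given beside some genes, and they rest on the same 3 sham arrays. They are differences of group means, and for some genes the BPH arrays were far apart from each other.

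Androgens keep the secretory epithelium of the prostate alive and drive its secretory genes, and the gland shrinks when they are withdrawn. In the rat model of benign prostatic hyperplasia (BPH), androgen replacement after castration enlarges the gland. Ghrelin is a peptide hormone of the stomach that raises appetite and releases growth hormone through its receptor GHSR. Some transcripts that mark rat prostate epithelium were abundant in both groups, and 3 of the 18 prostate secretory genes tested, described below, were called lower in BPH+ghrelin. The signals of Scgb1d2, Sbp and Andpro, which code for major proteins of rat prostatic fluid, differed by 0.07, 0.07 and 0.02 on the log2 scale between the groups. The probe for the ghrelin receptor, Ghsr, had a dim signal, with means of 3.96 and 3.60 (limma adjusted p = 0.429). The arrays were hybridised with RNA of whole tissue, so that fewer cells of a type and less RNA per cell cannot be told apart.

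Arrays that shared a scan time were taken as lying on 1 slide. BPH+ghrelin replicates 2 and 3 and sham replicates 1 and 2 were on 1 slide, BPH+ghrelin replicate 1 shared a slide with the BPH arrays, and sham replicate 3 was alone. Sham replicate 2 had the lowest raw signal, with a median of 40.9 and 61.4% of its probes well above background (69.5% to 73.2% on the other 5 arrays). One array of each group lay between the other 2 arrays of its group on most probes. This was BPH+ghrelin replicate 2 on 69.5% of the probes and sham replicate 3 on 73.9%, against 9.67% to 17.2% for the other 4 arrays. With 3 arrays per group, the p-values measure the spread between these arrays, which are taken to stem from separate rats.

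In limma, 1279 of 21469 probes (5.96%) had an adjusted p under 0.05, and these are the probes called here. Of them, 617 (2.87%) were higher and 662 (3.08%) were lower in BPH+ghrelin. Among the 11311 genes with a symbol, 736 (6.51%) were called, of which 314 (2.78%) were called higher and 422 (3.73%) were called lower. A change of at least 2-fold, with no test, was seen in 3.21% of these genes upward and in 4.28% downward. The arrays of the groups did not overlap for 29.9% of the probes and 31.9% of these genes. The median log2 difference of all genes was 0.05. Quantile normalization fixes the distribution of every array, and the split of the calls depended on this choice. Upward calls made up 48.2% of all calls, 67.0% after scaling to the median and 38.4% after scaling to the 75th percentile, while the median of all genes was 0.16 and 0.02. The differences below are given as fitted, without subtracting that median.

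The number of calls depended on single arrays and on the slide. It was 226 without BPH+ghrelin replicate 2, 270 without sham replicate 3, 431 without BPH+ghrelin replicate 1 and 556 without BPH+ghrelin replicate 3. It was 1703 without sham replicate 1 and 2067 without sham replicate 2. No BPH array was left out, although the BPH arrays also enter the estimate of the spread. With the slide as a fixed block, which leaves the 4 arrays of the shared slide to carry the difference and 4 residual degrees of freedom, 89 probes were called, and 2777 had an unadjusted p under 0.05. With these 4 arrays alone, 4 probes were called. Of the 736 genes called with all arrays, 50 were called with the slide as a block. The size of a fold depended on the background correction. With normexp, 59 of the 126 named genes had a fold smaller by more than 1.5 times and 0 a fold larger by more than that, all 126 kept their sign and 115 were called. With the slide as a block, 15 of these 126 were called.

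**Figure D1:**
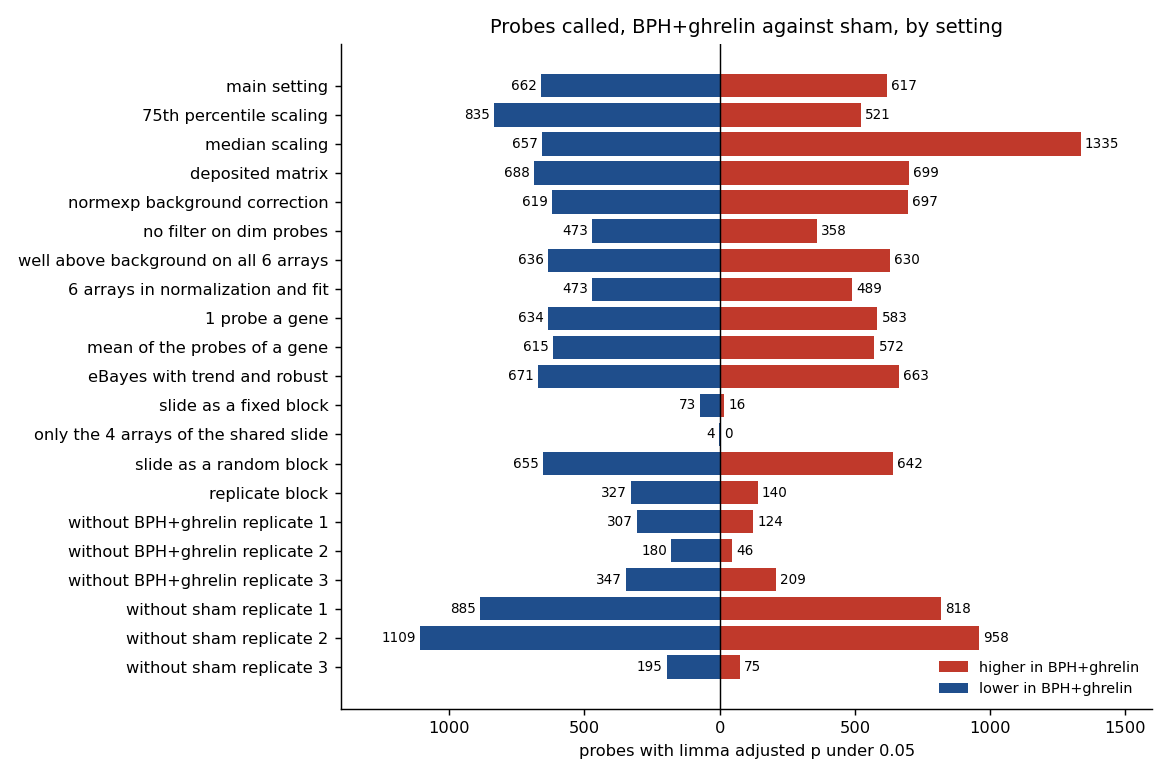
Number of probes with a limma adjusted p under 0.05, higher in BPH+ghrelin (right, red) or lower (left, blue), for the main setting and 20 alternatives, on a linear axis. Calls were fewest on the 4 arrays of the shared slide (4) and most without sham replicate 2 (2067).

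The largest increases were in genes with diverse roles. Gal, the gene of the neuropeptide galanin, had log2 signals of 10.50, 10.84 and 11.21 on the BPH+ghrelin arrays and 6.64, 6.37 and 6.47 on the sham arrays. It was 20.5-fold higher in BPH+ghrelin (log2 difference 4.36 ± 0.62 (SE), limma adjusted p = 0.00905). BPH against sham gave 1.01 (limma adjusted p = 0.317), with BPH arrays far apart at 5.92, 7.80 and 8.80. Fgfbp1, which binds fibroblast growth factors and releases them from the matrix, read 8.62, 8.54 and 8.33 in BPH+ghrelin and 5.84, 4.22 and 5.54 in sham. The lowest BPH+ghrelin array lay far above the highest sham array, with a log2 difference of 3.30 ± 0.38 (limma adjusted p = 0.00382). Akr1c13, an aldo-keto reductase, read 9.15, 9.00 and 8.91 against 5.79, 6.22 and 5.83 and was 8.41-fold higher (limma adjusted p = 0.00216). The values of Rln1, the gene of the peptide hormone relaxin, were 7.75, 7.70 and 7.82 against 4.77, 5.40 and 4.94, a 6.58-fold difference (limma adjusted p = 0.00255). These 4 genes stayed called whichever array was left out but not with the slide as a block, where the log2 difference of Gal was 4.52 (limma adjusted p = 0.12), and BPH against sham gave 1.65 and 1.31 for Fgfbp1 and Rln1.

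Lpal2 had the largest increase (5.28 ± 1.25, limma adjusted p = 0.0477). Its arrays read 10.59, 9.86 and 8.16 in BPH+ghrelin and 4.18, 4.14 and 4.44 in sham, and its call was lost when any of the 6 arrays was left out. Lrat, which esterifies retinol for storage, was 8.78-fold higher on its brighter probe and 1.11-fold higher on a second, so its probes disagree. Ina (alpha-internexin, a neurofilament protein) was 8.13-fold higher. Pbk, Spc25 and Ube2t, which serve mitosis and DNA repair, were 6.48-fold, 6.3-fold and 6.11-fold higher. The calls of Lrat, Ina and Pbk were lost without any of the 3 BPH+ghrelin arrays and without sham replicate 3 (limma adjusted p of 0.0938, 0.0822 and 0.111 at most), and those of Spc25 and Ube2t also without sham replicate 2 (0.155 and 0.137 at most).

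RT1-Bb, which codes for a chain of MHC class II, was 5.78-fold higher on its brighter probe, while its second probe fell by 8.33 on the log2 scale and was not well above background on any BPH+ghrelin array. No direction is given for RT1-Bb. Among genes whose probe was not well above background on any sham array, Plppr4 was at least 5.19-fold higher in BPH+ghrelin, although its second probe differed by 0.34. Fbxo5, an inhibitor of the anaphase-promoting complex, Lrr1 and the mitotic kinases Aurkb and Mastl were at least 3.85-fold, 3.52-fold, 3.4-fold and 3.26-fold higher (limma adjusted p = 0.00205, 0.0253, 0.0473 and 0.014). These bounds set the BPH+ghrelin mean against, on each sham array, the higher of the probe's own signal and the lowest signal of any probe well above background. Such genes passed the filter through the arrays of 1 group alone, and their adjusted p rests on dim signals in the other. The bounds hold for the main background correction only. With normexp, the log2 differences of Plppr4, Fbxo5, Lrr1, Aurkb and Mastl were 0.59, 0.47, 0.41, 0.32 and 0.35.

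The 12 leading decreases ran from -9.70 to -4.88 on the log2 scale, and the 12 leading increases from 2.53 to 5.28. With the slide as a block, 6 of these decreases and 0 of these increases were called. Car2 (carbonic anhydrase 2, which makes bicarbonate) read 8.70, 8.26 and 7.57 in BPH+ghrelin and 14.85, 14.25 and 14.59 in sham, and fell by 6.39 on the log2 scale, or 83.8-fold (SE 0.50, limma adjusted p = 0.000724). Pou3f1, a POU-domain transcription factor, read 5.47, 5.70 and 5.63 against 11.87, 10.63 and 11.49 and was 53-fold lower (limma adjusted p = 0.000356). In both genes the groups lay far apart beside the spread within each. Atp6v1c2 (a subunit of the vacuolar proton pump), St3gal6 (a sialyltransferase) and Mcoln2 (a cation channel of endosomes) were 40.7-fold, 29.5-fold and 89.7-fold lower (limma adjusted p = 0.000324, 0.000738 and 0.00205). Their calls and those of Car2 and Pou3f1 held whichever array was left out and with the slide as a block. BPH against sham gave -4.16 for Car2, -5.01 for Pou3f1, -3.54 for Atp6v1c2, -3.69 for St3gal6 and -4.92 for Mcoln2.

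Some called genes were not well above background on any BPH+ghrelin array but were so on every sham array. Atp12a, the non-gastric proton and potassium pump, read 12.11, 11.89 and 11.96 in sham and was at least 622-fold lower in BPH+ghrelin (limma adjusted p = 0.0131, with dim signals in BPH+ghrelin). Its call was lost without BPH+ghrelin replicate 2 (adjusted p = 0.0663) or sham replicate 3 (adjusted p = 0.059). The BPH arrays of Atp12a read 8.72, 7.72 and 0.77, and their spread enters its SE of 1.75. Scn1a, a voltage-gated sodium channel, was at least 28-fold lower (limma adjusted p = 0.00247). With normexp the log2 differences of Atp12a and Scn1a were -5.74 and -1.87, short of these bounds. Teddm1a and Svs3b are described with their gene groups.

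**Figure D2:**
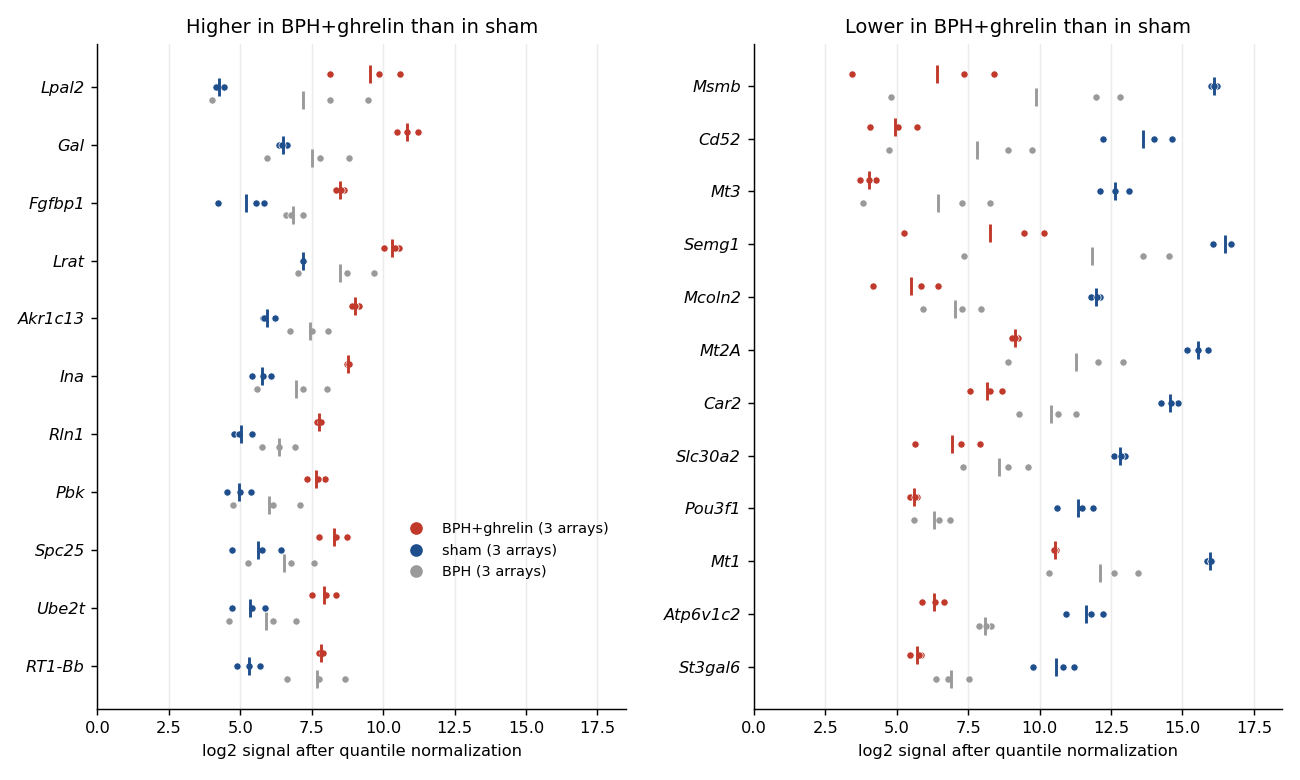
Log2 signals of 11 of the 12 genes with the largest called increase (left) and of the 12 with the largest decrease (right) that were well above background on all 6 arrays. Points are single arrays, bars are group means of 3 arrays, and BPH arrays (grey) are shown beside BPH+ghrelin (red) and sham (blue). The red and blue points of a gene do not overlap, which was required when the genes were picked, and the sham arrays of Msmb, Mcoln2 and Lrat lie close together.

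The prostate holds much zinc, which metallothioneins bind and membrane transporters move. The genes with the largest decreases included Mt1, Mt2A and Mt3, the 3 metallothioneins of the list. Promoters of Mt1, Mt2A, Mt3 and the vesicular zinc transporter Slc30a2 are printed because these genes were lower together. They run from 230 bases before to 20 after the RefSeq start of transcription (assembly GRCr8, chr19:10832956-10833205, chr19:10838689-10838938 and chr19:10856061-10856310 on the minus strand and chr5:151843221-151843470 on the plus strand). Capitals mark the core of the metal response element (TGCGCNC or TGCACNC, either strand) and the TATA box (TATAAA).
Mt1: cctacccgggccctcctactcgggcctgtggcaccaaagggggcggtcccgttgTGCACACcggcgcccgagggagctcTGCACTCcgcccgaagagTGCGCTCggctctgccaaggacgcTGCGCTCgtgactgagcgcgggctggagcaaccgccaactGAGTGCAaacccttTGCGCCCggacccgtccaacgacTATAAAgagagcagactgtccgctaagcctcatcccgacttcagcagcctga
Mt2A: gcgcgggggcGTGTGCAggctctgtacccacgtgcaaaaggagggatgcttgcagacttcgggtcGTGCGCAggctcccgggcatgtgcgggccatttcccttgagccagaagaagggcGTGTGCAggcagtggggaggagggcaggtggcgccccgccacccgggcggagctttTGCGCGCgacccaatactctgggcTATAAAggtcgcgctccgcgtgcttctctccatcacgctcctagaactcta
Mt3: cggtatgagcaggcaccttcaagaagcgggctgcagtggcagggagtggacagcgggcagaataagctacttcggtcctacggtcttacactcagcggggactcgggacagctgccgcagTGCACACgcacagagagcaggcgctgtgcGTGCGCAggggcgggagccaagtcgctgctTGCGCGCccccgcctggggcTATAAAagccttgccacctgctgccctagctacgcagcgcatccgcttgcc
Slc30a2: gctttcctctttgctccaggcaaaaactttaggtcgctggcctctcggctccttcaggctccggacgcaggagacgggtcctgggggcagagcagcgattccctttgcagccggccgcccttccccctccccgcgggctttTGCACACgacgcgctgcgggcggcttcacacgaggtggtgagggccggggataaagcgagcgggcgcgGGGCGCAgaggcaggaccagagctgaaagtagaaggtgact

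The printed stretch held 6 cores for Mt1, 4 for Mt2A, 3 for Mt3 and 2 for Slc30a2, and a TATA box for the 3 metallothioneins. A core is short and common: at least 1 stood in 34.3% of 9271 promoters of genes tested (300 bases, 250 before to 50 after the start), at least 3 stood in 3.03% and at least 4 in 0.712%. The motif was searched after the values were known, and a match is a description only.

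Mt3 read 3.71, 4.28 and 4.04 in BPH+ghrelin and 12.12, 13.14 and 12.63 in sham, and fell by 8.62 on the log2 scale (SE 0.98, 393-fold, limma adjusted p = 0.00332). Mt2A read 9.24, 9.13 and 9.05 against 15.89, 15.16 and 15.54 and fell by 6.39 (84-fold), and Mt1 read 10.58, 10.51 and 10.50 against 15.85, 16.01 and 15.99 and fell by 5.42 (42.8-fold, limma adjusted p = 0.00756 and 0.0047). The BPH+ghrelin arrays differed by little from each other for Mt1 and Mt2A. Near-identical metallothionein sequences can bind the same probe, and a second probe of Mt2A fell by 4.47. Slc30a2 read 7.92, 7.23 and 5.63 against 13.00, 12.62 and 12.83 and was 59.4-fold lower (limma adjusted p = 0.0036). Slc39a8, which imports zinc, was 5.43-fold lower, with its call lost in 5 of the 6 fits that left out 1 array (adjusted p up to 0.147). BPH against sham gave -6.18, -4.24, -3.83 and -4.23 for Mt3, Mt2A, Mt1 and Slc30a2 (limma adjusted p = 0.0177, 0.0383, 0.0227 and 0.0184). The BPH arrays were spread widely, reading 8.26, 7.29 and 3.81 for Mt3 and 12.92, 12.04 and 8.89 for Mt2A.

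Mt1, Mt2A, Mt3, Slc30a2 and Slc39a8 were the 5 called of 23 genes of zinc and polyamine metabolism tested, all lower (3.73% of all genes). The list's median was 0.34. The other zinc transporters did not pass the test. Slc30a4 and Slc30a1 differed by 0.79 and 0.45, and Slc39a14 by -0.57. Polyamines are secreted by the prostate too, and Odc1, the first enzyme of their synthesis, differed by 0.70, Srm by 0.68 and Amd1 by -0.48 (limma adjusted p = 0.11, 0.224 and 0.345). With the slide as a block 1 of the 5, Slc30a2, was called, and Mt3, Mt2A and Mt1 had adjusted p-values of 0.0849, 0.123 and 0.0973. After scaling to the median, 5 members were called higher beside the 5 called lower.

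Secretory proteins split into a part that was lower and a part that was not. Promoters of Pbsn and Msmb are shown because both genes are secretory and were lower in BPH+ghrelin (chrX:45807964-45808213 on the minus strand and chr16:7372589-7372838 on the plus strand of GRCr8, 230 bases before to 20 after the start). Capitals mark the TATA box and the core of the androgen response element (AGAACA, either strand), which pairs with its mirror image in the full element.
Pbsn: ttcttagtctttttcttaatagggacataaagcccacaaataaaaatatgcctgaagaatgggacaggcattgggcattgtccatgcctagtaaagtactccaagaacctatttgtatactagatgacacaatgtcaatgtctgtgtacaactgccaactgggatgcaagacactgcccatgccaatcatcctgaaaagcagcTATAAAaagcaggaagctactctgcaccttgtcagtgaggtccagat
Msmb: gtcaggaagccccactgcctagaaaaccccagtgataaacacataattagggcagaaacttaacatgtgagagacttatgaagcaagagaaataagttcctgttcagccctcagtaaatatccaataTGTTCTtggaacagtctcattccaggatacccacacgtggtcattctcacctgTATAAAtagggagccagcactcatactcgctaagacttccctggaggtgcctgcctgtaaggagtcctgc

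The stretch of Msmb held 1 such core, 103 bases before the start, and that of Pbsn held none. The core stood in 13.5% of the promoters of genes tested, in 13.3% of those called higher and in 15.6% of those called lower, and the full element in 0 of 9271. The TATA box stood in 8.92% of the promoters tested and 15.3% of those called lower. It stood in 7 of the 10 genes of the seminal vesicle and coagulating gland list described below.

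Of 18 prostate secretory genes tested, 3 were called, all lower (3.73% of all genes), and the median of the list was -0.07. When 1 array was left out, 2 to 4 were called lower and 0 to 2 higher. With the slide as a block 0 were called, and the median was 0.02. Ptgds differed by 2.26, in the other direction, and was not called. Msmb (beta-microseminoprotein) read 16.22, 15.99 and 16.11 in sham and 8.41, 7.37 and 3.45 in BPH+ghrelin, where the arrays were far apart from each other, and fell by 9.70 on the log2 scale (SE 2.07, limma adjusted p = 0.036). Its call held only when sham replicate 2 was the array left out (adjusted p from 0.0497 to 0.121). Pbsn, the androgen-driven gene of probasin, read 14.46, 14.40 and 14.34 against 16.16, 16.41 and 16.30 and was 3.71-fold lower (limma adjusted p = 0.00482), and BPH against sham gave -2.65. Mt3 was on this list too. Scgb2a1, a secretoglobin, read 6.95, 14.11 and 15.05 against 15.95, 15.53 and 15.74, with BPH+ghrelin replicate 1 far below the others, and was not called (adjusted p = 0.256). The kallikreins Klk1c2, Klk1c8 and Klk1c9 differed by -0.03, -0.66 and 0.19 and were not called.

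Semenogelin and the related seminal vesicle secretory proteins form the clot of rat semen, and Tgm4, a transglutaminase of coagulating gland and dorsal prostate, crosslinks them. Of 10 such genes tested, 5 were called, all lower, against 3.73% of all genes with a symbol, and the median difference was -1.85. Semg1 read 10.14, 9.45 and 5.24 in BPH+ghrelin against 16.69, 16.07 and 16.69 in sham and fell by 8.20 (SE 1.91, limma adjusted p = 0.0459), a call lost whichever array was left out. Svs4 read 11.40, 10.68 and 8.85 against 15.64, 14.38 and 15.30, a 27.9-fold difference, and Tgm4 6.42, 6.01 and 4.97 against 9.62, 9.13 and 9.49, a 12.3-fold difference (limma adjusted p = 0.0228 and 0.0273). Svs3a, dim on 1 of the 3 BPH+ghrelin arrays, differed by -6.10 on the log2 scale (-2.69 with normexp, another background correction). Svs3b was at least 20.1-fold lower, a bound that normexp did not keep (log2 difference -1.51 there). The limma adjusted p was 0.00601 for Svs3a and 0.000724 for Svs3b, and these near-identical genes may share signal. Cst5, a cystatin, differed by 1.43, in the other direction, and Svs5, Svs6, Svop and Aldh1a3 differed by 0.52, 0.32, -0.08 and -0.02, and none of the 5 was called. The summed linear signal of the 10 genes was 727.5 to 4086 on the BPH+ghrelin arrays, 91110 to 158600 on the sham arrays and 841.2 to 28600 on the BPH arrays. Whether the pieces of tissue held different shares of these neighbouring glands was not tested. The number called was 2 to 4 when 1 array was left out and 1 with the slide as a block. The median was -0.79 with normexp and -4.21 over the 4 genes well above background on all 6 arrays.

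**Figure D3:**
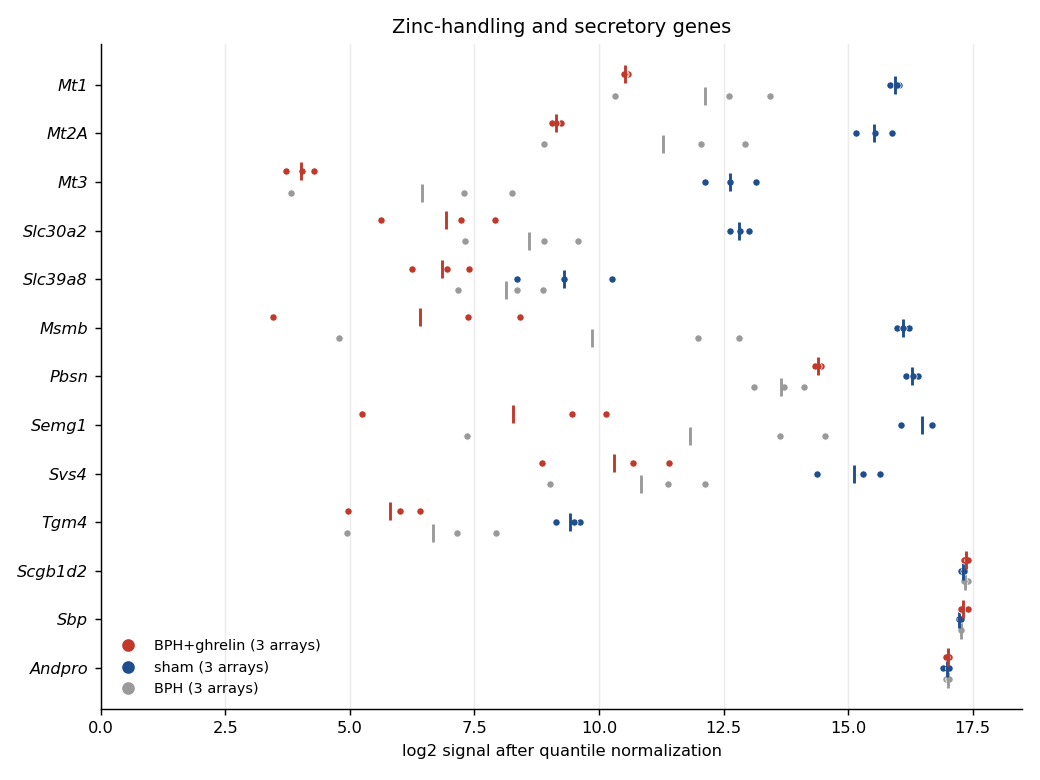
Log2 signals of 13 zinc-handling and secretory genes on the single arrays (points) with group means of 3 arrays (bars). Mt1, Mt2A and Mt3 are lower on all BPH+ghrelin arrays (red) than on the sham arrays (blue), while Scgb1d2, Sbp and Andpro lie close together in all groups.

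Genes of the cell cycle were higher as a group. Entry into S phase needs cyclin E and the replication helicase of MCM proteins, and mitosis needs cyclins A and B, the kinases Plk1, Aurka and Aurkb and the kinetochore. Of 48 such genes tested, 20 were called higher and 1 lower, against 2.78% called higher among all genes with a symbol. In 37 of the 48, all BPH+ghrelin arrays lay above all sham arrays (17.9% of all genes), 32 were at least 2-fold higher, and the median difference was 1.36 (0.05 over all genes). The median of BPH against sham, on the same sham arrays, was 0.43. The median stayed between 1.19 and 1.57 when 1 array was left out and was 1.25 within the shared slide. The number called higher did not: it was 2 without BPH+ghrelin replicate 1, BPH+ghrelin replicate 2 or sham replicate 3, 8 without BPH+ghrelin replicate 3, 14 without sham replicate 2, 17 without sham replicate 1 and 0 with the slide as a block. The median was 0.75 with normexp.

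Promoters of the mitotic genes Plk1 and Birc5 show the pair of motifs known from genes of late cell cycle, the CCAAT box (CCAAT) and the cell cycle homology region (TTTGAA), in capitals (chr1:186147428-186147677 and chr10:103571916-103572165, plus strand of GRCr8, 230 bases before to 20 after the start).
Plk1: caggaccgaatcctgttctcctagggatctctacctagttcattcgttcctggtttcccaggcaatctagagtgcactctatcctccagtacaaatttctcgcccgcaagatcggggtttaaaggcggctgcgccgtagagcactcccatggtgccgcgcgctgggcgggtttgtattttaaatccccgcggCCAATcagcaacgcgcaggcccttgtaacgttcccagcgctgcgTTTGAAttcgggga
Birc5: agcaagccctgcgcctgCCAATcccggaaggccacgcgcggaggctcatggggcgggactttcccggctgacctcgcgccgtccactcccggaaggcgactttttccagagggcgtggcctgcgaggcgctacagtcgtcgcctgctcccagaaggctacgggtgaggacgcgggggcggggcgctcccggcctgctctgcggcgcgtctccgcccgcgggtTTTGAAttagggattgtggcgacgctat

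In Plk1 the CCAAT box began 38 bases before the start and the other motif at position 7, past the start. In Birc5 the CCAAT box began 213 and the other motif 8 bases before the start, so the spacing of the pair differed. On either strand, CCAAT stood in 25 of 35 cell cycle promoters (71.4%) and in 16 of 22 promoters of the lipid and cholesterol list (72.7%). The high share was thus not particular to the cell cycle list. CCAAT stood in 45.6% of the promoters of genes called higher, 37.9% of those called lower and 38.2% of those tested. TTTGAA stood in 13 of the 35 (37.1%), 19.4% of the promoters of genes called higher, 16.5% of those called lower and 12.6% of those tested. These shares carry no test.

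Among the genes of G1 and S phase, Ccne1 (cyclin E1) read 9.85, 9.45 and 8.77 in BPH+ghrelin and 7.23, 6.64 and 7.08 in sham and was 5.18-fold higher (log2 difference 2.37 ± 0.47, limma adjusted p = 0.0284). Mcm6 and Mcm3, subunits of the helicase, were 4.04-fold and 2.94-fold higher and stayed called whichever array was left out (limma adjusted p = 0.00681 and 0.00401). Mcm6 read 7.61, 7.43 and 7.10 against 5.19, 5.46 and 5.44, and Mcm3 10.61, 10.40 and 10.25 against 8.83, 8.94 and 8.81. The sham values of both were close together, and BPH+ghrelin replicate 3 was the lowest of its group. Cdc6, which loads the helicase, Tk1, which recycles thymidine, and Pcna, the sliding clamp, were 5.68-fold, 4.71-fold and 1.76-fold higher. Their limma adjusted p-values were 0.0202, 0.0341 and 0.0201. Cdc6 was not well above background on all 6 arrays, and its log2 difference with normexp was 0.67. E2f1, Cdk6 and Gins1 were also called, E2f1 by 1.22 on one probe and not on a second (-0.12). Mcm2, Mcm7 and Prim1 differed by only 0.28, 0.26 and 0.25. The D cyclins did not move together, since Ccnd2 was 1.64-fold lower (limma adjusted p = 0.0379) and Ccnd1 and Ccnd3 differed by 0.65 and 0.54.

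Among the mitotic genes, Ccna2 (cyclin A2) read 10.03, 9.54 and 8.92 against 7.51, 6.35 and 7.13, and Ttk, a spindle checkpoint kinase, 8.79, 8.44 and 8.27 against 6.14, 5.80 and 6.08. They were 5.65-fold and 5.64-fold higher (limma adjusted p = 0.0373 and 0.0168). Plk1 read 9.87, 9.51 and 8.88 against 7.86, 6.73 and 7.65, a 4.03-fold difference (limma adjusted p = 0.0398). In each of these genes replicate 1 was the highest BPH+ghrelin array and replicate 3 the lowest. Kif20a, Nusap1, Birc5, Ndc80, Aurka and Foxm1, the transcription factor of G2 and mitosis, were 4.33-fold, 3.88-fold, 3.45-fold, 3.35-fold, 2.89-fold and 2.58-fold higher. Tpx2 was at least 1.98-fold higher, since no sham array read it well above background, but its log2 difference with normexp was 0.13. Rrm2, Cdk1, Ccnb1 and Kif11 had log2 differences of 2.53, 1.99, 2.08 and 2.04 without overlap, but were not called (limma adjusted p = 0.0589, 0.0628, 0.0566 and 0.0663).

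**Figure D4:**
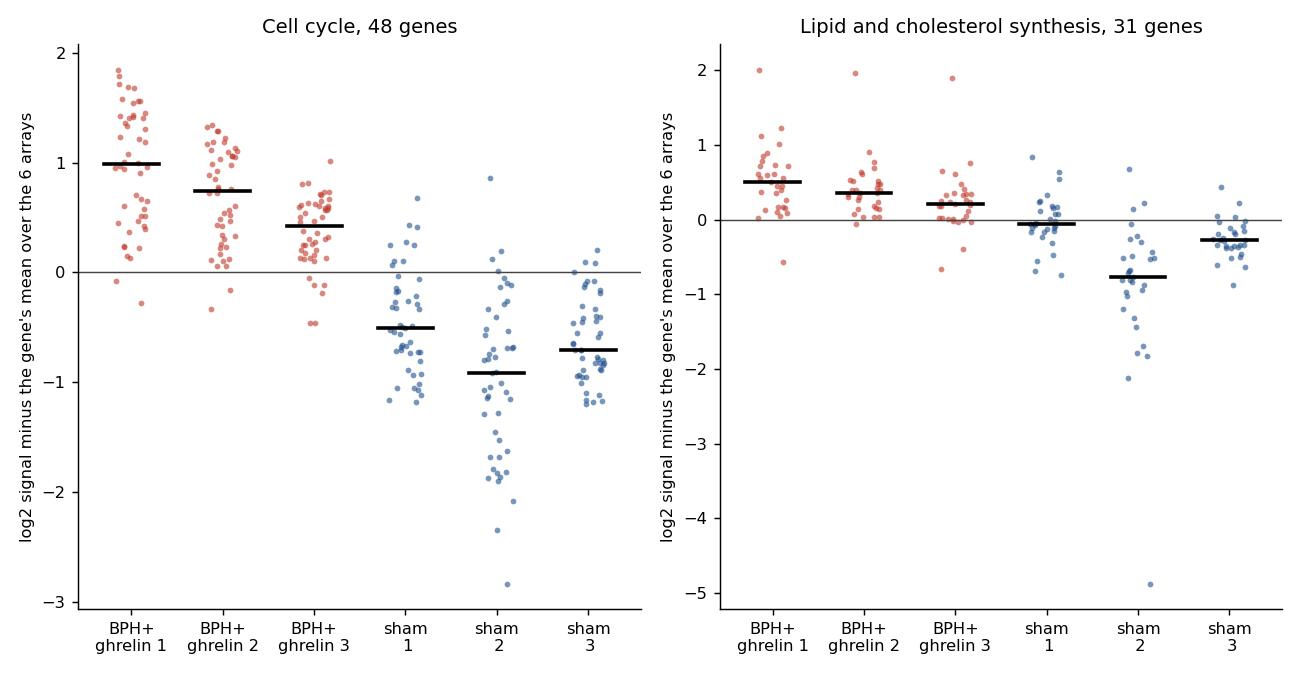
Log2 signal of each gene minus its mean over the 6 arrays, for 48 cell cycle genes (left) and 31 genes of lipid and cholesterol synthesis (right). Points are genes and black bars the median of each array. The cell cycle medians are 0.98, 0.74 and 0.42 on BPH+ghrelin arrays and -0.50, -0.91 and -0.70 on sham arrays, and sham replicate 2 is the lowest array of both lists.

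Of 22 p53 targets and cell cycle inhibitors tested, 3 were called higher and 1 lower (2.78% and 3.73% of all genes), and 0 to 4 were called higher when 1 array was left out. Ccng1 (cyclin G1) read 9.37, 10.24 and 10.79 in BPH+ghrelin against 8.67, 8.41 and 8.61 in sham, a 2.97-fold difference (limma adjusted p = 0.0311), and BPH against sham gave 2.52. Rrm2b and Gadd45a, which serve DNA repair, were 2.45-fold and 2.06-fold higher, and Plk2 was 3.16-fold lower (limma adjusted p = 0.0151, 0.0418 and 0.0453). Cdkn1a, Mdm2 and Bax, other p53 targets, differed by 0.18, 0.51 and -0.02 and were not called.

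The study chose 12 genes on these BPH+ghrelin and BPH arrays, so their direction here is not independent evidence of an increase. Of the 11 tested, 7 were called higher against sham (2.78% of all genes). Without BPH+ghrelin replicate 1, BPH+ghrelin replicate 2 or sham replicate 3, 1 was called, without another array 5 or 6, and with the slide as a block 0. These were Gal, Ttk, Ccne1 and Foxm1, described above, and Bmp6, Spon1 and Them5. Bmp6, a bone morphogenetic protein, read 6.40, 6.68 and 6.89 against 4.52, 2.10 and 3.82, with sham replicate 2 lowest and the probe well above background on 2 of 3 sham arrays (log2 difference 3.18 ± 0.69, limma adjusted p = 0.0378). Spon1, a matrix protein, and Them5, a mitochondrial thioesterase, were 3.13-fold and 2.41-fold higher (limma adjusted p = 0.042 and 0.0308). BPH against sham gave 0.04, 0.02 and -0.82 for Bmp6, Spon1 and Them5. Rtkn2, Limk2, Abra and Slc10a6 differed from sham by 1.05, 0.93, -0.12 and -0.41 and were not called (limma adjusted p = 0.102, 0.525, 0.938 and 0.73).

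Prostate epithelium makes its own cholesterol and fatty acids, and sterol shortage turns on the genes of this pathway together. Of 31 genes of lipid and cholesterol synthesis, 6 were called higher (2.78% of all genes) and 0 lower, 29 lay above 0 (55.9% of all genes did), and the median was 0.72. Enzymes of the mevalonate and sterol steps were among those called. Mvk, Mvd and Fdps were 1.76-fold, 2.11-fold and 1.55-fold higher, Nsdhl was 1.84-fold higher, and Sc5d was higher by 1.21 on the log2 scale (limma adjusted p = 0.0272, 0.00833, 0.0312, 0.0397 and 0.00941). The fatty acid synthase Fasn differed by 0.59 and was not called (limma adjusted p = 0.0516). The list's median without sham replicate 2 was 0.51, with 8 members called, and 0 were called without BPH+ghrelin replicate 2 or with the slide as a block, 1 without sham replicate 3, 2 without BPH+ghrelin replicate 1, 3 without BPH+ghrelin replicate 3 and 13 without sham replicate 1. Scaling to the median gave 17 called and scaling to the 75th percentile 11.

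Of 32 growth factors and binding proteins, 5 were called lower (3.73% of all genes) and 1, Bmp6, higher (2.78%). Ccn1, a matricellular protein induced by serum and stretch, read 7.56, 7.33 and 7.16 against 9.87, 9.70 and 9.75 and fell by 2.42 (SE 0.20, 5.37-fold, limma adjusted p = 0.000738). The call of Ccn1 held whichever array was left out and with the slide as a block. Its relative Ccn2 (connective tissue growth factor) was 2.61-fold lower, Igf2 2.26-fold, Inhba (an activin subunit) 1.91-fold and Igfbp2 1.65-fold lower (limma adjusted p = 0.0176, 0.00244, 0.0225 and 0.0444). BPH against sham gave -1.90, 0.14 and 0.02 for Ccn1, Ccn2 and Igf2. Igf1, through which growth hormone acts on tissues, differed by -0.03 (adjusted p = 0.976), Fgf10 by -0.11 and Egf by -0.24. Without sham replicate 2, 8 of the 32 were called lower, 2 without the third sham array or either of the first 2 BPH+ghrelin arrays, and 1 with the slide as a block.

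Stromal genes changed in a few members. Of 34 genes of smooth muscle contraction, 3 were called lower (3.73% of all genes) and 0 higher, and the median was -0.26. Myh11, the heavy chain of smooth muscle myosin, read 10.37, 10.37 and 10.37 against 11.45, 11.47 and 11.40, so that the groups were tight and far apart, and fell by 1.07 (2.1-fold, limma adjusted p = 0.0025). BPH against sham gave -0.11 for it. Tpm2 and Cald1, which regulate actin filaments, were 2.09-fold and 1.95-fold lower (limma adjusted p = 0.0389 and 0.0223). Acta2, Actg2 and Tagln differed by -0.40, -0.29 and -0.37, and the adrenoceptors Adra1a, Adra1b and Adra1d, through which norepinephrine contracts the prostate, by -0.07, -0.14 and -0.28, none of them called. Sham replicate 2 was the lowest sham array of this list, and without it the median was -0.52 and 7 members were called lower. Without any BPH+ghrelin array or sham replicate 3, 1 was called lower, and with the slide as a block 0. The median was -0.03 without sham replicate 1 and -0.09 with normexp.

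Of 32 fibroblast and matrix genes, 2 were called higher and 3 lower (2.78% and 3.73% of all genes). No call was left without BPH+ghrelin replicate 2, without sham replicate 3 or with the slide as a block, and 5 were lower without sham replicate 2. Timp1, an inhibitor of matrix metalloproteinases, was 2.25-fold higher, Spon1 was the other gene called higher, and the small proteoglycans Lum, Bgn and Ogn were 2.68-fold, 2.19-fold and 1.96-fold lower (limma adjusted p = 0.0122, 0.0149, 0.023 and 0.0103). A second probe of Bgn differed by 0.33 in the other direction. The collagens Col1a1, Col1a2 and Col3a1 differed by 0.91, 0.29 and 0.36 and were not called. The sign of this list's median (0.05) turned with probes well above background on all 6 arrays (-0.11), with the mean of a gene's probes (-0.01), with normexp (-0.01), without BPH+ghrelin replicate 3 (-0.06) and without sham replicate 2 (-0.29). Of 13 genes of endothelium and pericytes, 2 were called lower (3.73% of all genes), the junction protein Pecam1 (1.54-fold) and the potassium channel Kcnj8 (2.02-fold, limma adjusted p = 0.0452 and 0.0338). In 10 of the 13, all BPH+ghrelin arrays lay below all sham arrays (14% of all genes), and the median was -0.62 (-0.21 with normexp). Without any BPH+ghrelin array, without sham replicate 3 or with the slide as a block, 0 were called in limma. With all arrays, 9 had an unadjusted p under 0.05. Scaling to the 75th percentile called 6 of the 13 lower, and probes well above background on all 6 arrays gave 4 of 11.

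Some chemokine and complement genes were lower in BPH+ghrelin. Of 31 genes tested, 8 were called lower (3.73% of all genes) and 1, Cxcl12, higher (2.78%), and the median was -0.62. Cxcl1, which attracts neutrophils, read 3.70, 3.87 and 4.08 in BPH+ghrelin against 6.55, 6.69 and 6.54 in sham and fell by 2.71 (SE 0.13, 6.54-fold, limma adjusted p = 0.000172). It stayed called whichever array was left out and with the slide as a block. The monocyte attractants Ccl2 and Ccl7 were 2.75-fold and 3.83-fold lower, and the complement protease Cfi 8.1-fold (limma adjusted p = 0.00716, 0.0025 and 0.00566). With normexp the log2 differences of Cxcl1, Ccl2, Ccl7 and Cfi were -0.95, -0.63, -0.43 and -1.22. Ccl11, which attracts eosinophils, was dim on 2 of the 3 BPH+ghrelin arrays and differed by -3.48 on the log2 scale (-0.87 with normexp), and Cxcl13, which attracts B cells, was 3.29-fold lower (limma adjusted p = 0.03 and 0.0342). Cd59b, which holds complement in check, fell by 0.83 on the log2 scale. The call of Cxcl12 was lost whichever array was left out. The number called lower was 4 to 11 when 1 array was left out and 1 with the slide as a block.

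Of 17 lymphocyte and mast cell genes, 5 were called lower, against 3.73% of all genes. Cd52 codes for a surface glycoprotein of lymphocytes that epithelium of the male genital tract also makes and sheds, and it read 5.70, 5.06 and 4.05 against 14.62, 12.20 and 13.99 and fell by 8.67 (SE 1.24, limma adjusted p = 0.00943). The other 4 were Ptprc (CD45), Coro1a, Nkg7 and Cd3d, with differences of -0.78, -0.88, -0.74 and -0.70. Of 19 macrophage genes, Fcgr3a and Fcgr2b, receptors for antibodies, were called, 2.89-fold and 2.03-fold lower, and the median was -0.42. A second probe of Fcgr2b differed by -0.23. In 12 of these 19, the groups did not overlap, with BPH+ghrelin below (14% of all genes). Of 16 antigen presentation genes, 3 were called lower beside RT1-Bb (3.73% of all genes), 0 to 5 when 1 array was left out and 0 with the slide as a block. These were B2m, RT1-Db1 and Cd74, which were 3.32-fold, 4.25-fold and 1.47-fold lower (limma adjusted p = 0.00945, 0.0469 and 0.0436). Of 25 interferon-stimulated genes, 0 were called, 12 lay below sham without overlap (14% of all genes), the median was -0.39, and Usp18, Ifit3 and Isg15 differed by -1.40, -1.03 and -0.78 (adjusted p = 0.0897, 0.0778 and 0.144). In limma, 12 of the 25 had an unadjusted p under 0.05, and a fit of the 6 arrays alone called 5 lower. When 1 array was left out, the counts called lower ranged from 1 to 6 for lymphocytes and from 0 to 3 for macrophages, and with the slide as a block both were 0.

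Of 20 androgen-regulated genes tested, 1 was called lower and 1, Maf, higher (3.73% and 2.78% of all genes), and the median was 0.08. When 1 array was left out, 1 to 3 were called lower and 0 or 1 higher, and the sign of the median turned without BPH+ghrelin replicate 1 (-0.02) and sham replicate 2 (-0.13). Fkbp5, Tmprss2, Slc45a3 and Steap4, further androgen targets, differed by 0.02, -0.14, 0.15 and -0.14 and were not called. Among 6 genes known to rise after castration, 0 were called in limma (3 had an unadjusted p under 0.05), and Clu, Mmp7 and Tgm2 differed by -0.72, -1.46 and 0.33. Of 18 genes of steroid receptors and conversion, Hsd17b11 was called lower (2.14-fold, against 3.73% of all genes called lower), and Srd5a1 and Srd5a2, which convert testosterone to dihydrotestosterone, differed by 0.82 and -0.39 (limma adjusted p = 0.0376, 0.309 and 0.259). The call of Hsd17b11 was lost in 4 of the 6 fits without 1 array (adjusted p up to 0.142) and with the slide as a block (0.204).

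In epithelium, Krt8, Krt15 and the laminin chain Lamb3 were 1.69-fold, 2.31-fold and 2.35-fold higher, and Krt23, dim on 2 of the 3 BPH+ghrelin arrays, differed by -3.81 (-0.81 with normexp) (limma adjusted p = 0.0176, 0.0176, 0.0113 and 0.0131). These were the 4 called of 23, 3 higher and 1 lower (2.78% and 3.73% of all genes), and 0 were called without sham replicate 3 or with the slide as a block. The basal cell markers Krt5, Krt14 and Tp63 differed by -0.34, 0.48 and -0.57 and were not called. In the housekeeping lists, 0 of 34 ribosomal protein genes and 0 of 37 genes of the respiratory chain were called in limma (2 and 10 had an unadjusted p under 0.05), with medians of 0.0029 (-0.08 with scaling to the 75th percentile) and 0.15. Of 34 genes of protein folding in the endoplasmic reticulum, 1 was called, Creb3l1 (-0.89), against 3.73% of all genes called lower, and the median was 0.34. Its call was lost in 4 of the 6 fits without 1 array (adjusted p up to 0.0972) and with the slide as a block (0.193).

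Ckm, Mb and Tnni2, genes of striated muscle, were 3.89-fold, 1.93-fold and 1.73-fold lower, the 3 called of 22 tested (3.73% of all genes), 1 to 6 when 1 array was left out and 0 with the slide as a block. The summed linear signal of these 22 genes was 4620 to 4944 on BPH+ghrelin arrays and 6109 to 6888 on sham arrays, and its part in the other results was not tested. Of 31 genes of fatty acid oxidation and storage, 2 were called higher and 2 lower (2.78% and 3.73% of all genes). The counts were the same for 25 xenobiotic enzymes. When 1 array was left out, 0 to 3 of either list were called higher. Lower calls numbered 1 to 3 for fatty acids and 1 to 4 for xenobiotic enzymes. With the slide as a block, only Gsta4 of these 2 lists was called. Acot1, a thioesterase, was 2.79-fold lower, and Dgat1, which makes triglycerides, was 1.73-fold higher. Gsta4, a glutathione transferase, fell by 1.83 (limma adjusted p = 0.000877), Fmo2 was 2.1-fold lower, and Gstm1 and the xenobiotic receptor Nr1i2 were 2.14-fold and 2.13-fold higher. Of 20 immediate early genes, Ier3 was called lower (-0.84), 8 were without sham replicate 2, and Fos read 7.35, 7.62 and 7.87 against 10.97, 7.95 and 10.37 without a call (adjusted p = 0.0974). Of 14 clock genes Cry2 was called lower (-0.97). The calls of Ier3 and Cry2 were each lost in 4 of the 6 fits without 1 array and with the slide as a block (adjusted p = 0.274 and 0.236 there). Of 18 nerve and neuroendocrine genes, Gal was called higher. These lists thus had 1 call each, where 3.73% of all genes were called lower and 2.78% higher.

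Among 11 genes of urothelium and epididymis, Teddm1a, an epididymal membrane protein gene, read 8.22, 8.68 and 8.54 in sham. It was at least 54.6-fold lower in BPH+ghrelin (limma adjusted p = 0.00437), but with normexp its log2 difference was -2.68, short of that bound. The urothelial plaque genes Upk1a and Upk1b differed in direction, 3.99-fold lower and 1.91-fold higher (limma adjusted p = 0.0126 and 0.0397). A second probe of Upk1b was not called. The call of Upk1a was kept in 4 and that of Upk1b in 2 of the 6 fits that left out 1 array. With the slide as a block both were lost (limma adjusted p = 0.12 and 0.269). The epididymal genes Crisp1, Lcn12 and Adam7 differed by -0.55, -0.34 and 0.34. The summed linear signal of the 11 genes was 1815 to 2227 on BPH+ghrelin arrays and 1979 to 2885 on sham arrays, and the part of such tissue in the other results was not tested.

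**Figure D5:**
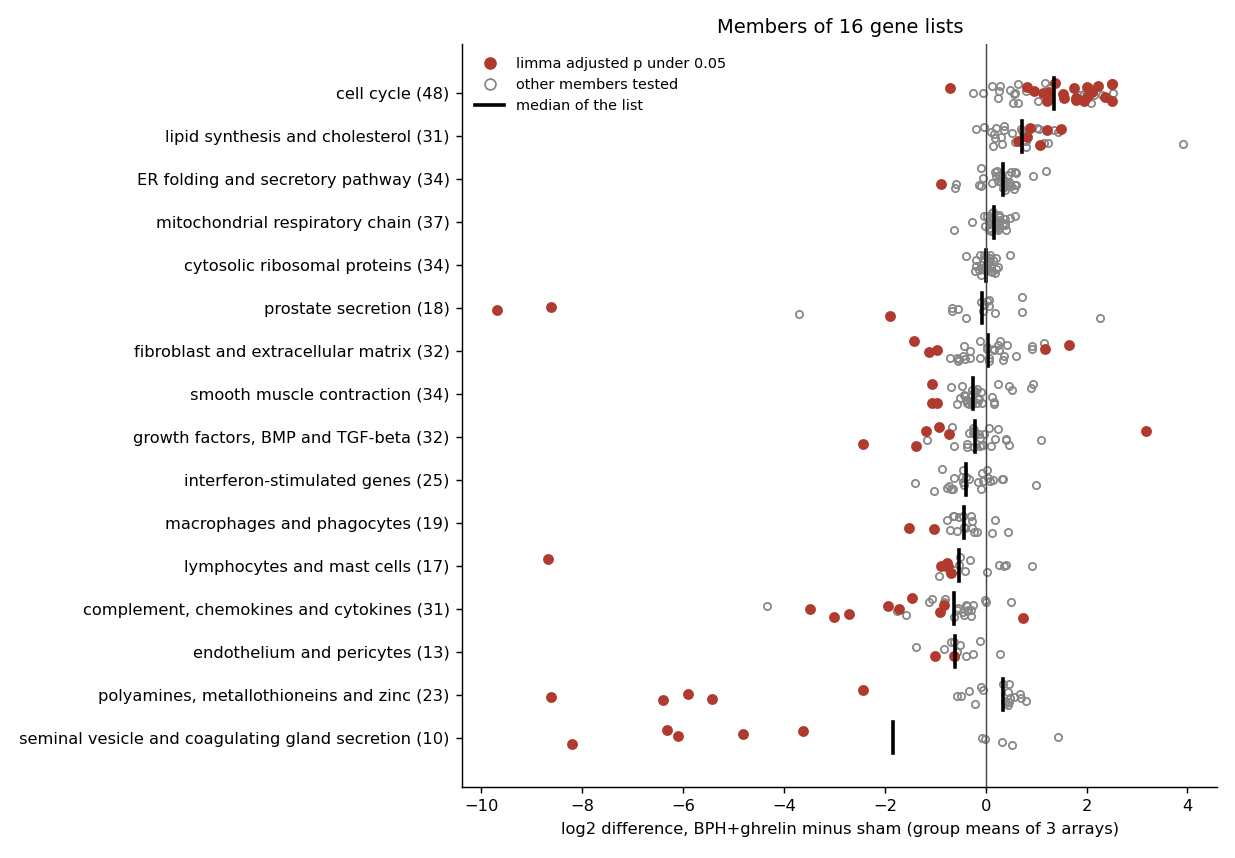
Log2 difference of each member of 16 gene lists between BPH+ghrelin and sham (group means of 3 arrays, linear axis of log2 values), with the number of members tested in parentheses. Filled points are called genes, open points are other members and black bars list medians. The cell cycle list has the highest median (1.36) of the lists drawn, and that of the seminal vesicle the lowest (-1.85).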

How the data were processed

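RNA of rat prostate was hybridised to 9 one-colour Agilent arrays, 3 for each of BPH+ghrelin, BPH and sham, grouped by their labels. The deposited scanner files hold the intensity of each spot from Feature Extraction 11.0.1.1, already background-corrected per the file headers. The deposited matrix holds log2 values that the authors made with GeneSpring GX 12.1 after quantile normalization, and it was used as an alternative. Here outlier spots were removed, spots of a probe averaged, and log2 intensities quantile-normalized over 9 arrays. Probes that 3 or more of the 6 arrays read well above background were tested with limma 3.58.1 (R 4.3.3; lmFit and eBayes with 3 groups, 6 residual degrees of freedom), and p-values were adjusted by Benjamini-Hochberg over all 21469 probes. A gene is given by its tested probe of highest mean signal. Accessions were named through RefSeq (assembly GRCr8, names and promoters only), which named 17998 of 30356 probes (59.3%). The number of arrays limits the precision. The code was tested on simulated data.

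The members and lists were chosen with earlier results of these data known. Genes named are, per direction, the 12 called genes with the largest difference that were well above background on all 6 arrays without overlap, up to 5 called genes measured in 1 group only, and list members, called ones first. Alternatives changed the normalization, background, filter, arrays, feature, moderation, blocks and criterion. That scan time marks a slide was inferred. Some genes that the rule would name are not reported here.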

Additional observations from a re-analysis of the deposited data

How the results depend on the processing

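Against 1279 probes called (617 higher, 662 lower), median scaling gave 1992 (1335 higher) and no filter on dim probes gave 831 (358 higher). The slide as a fixed block gave 89 (16 higher, 73 lower), and the 4 arrays of the shared slide alone gave 4 (0 higher, 4 lower). These 4 arrays hold fewer samples and 1836 probes had an unadjusted p under 0.05 there. Calls of at least 2-fold numbered 706 (282 higher, 424 lower), and 5024 probes had an unadjusted p under 0.05 (2898 higher, 2126 lower). When 1 array was left out, 226 to 2067 probes were called, 46 to 958 higher and 180 to 1109 lower. Replicate numbers did not pair the samples, since the correlations of same-numbered arrays were 0.29, -0.03 and -0.16. With the replicate number as a block, 467 probes were called (140 higher, 327 lower). The cause of these shifts was not tested. The remaining settings, the deposited matrix included, kept the count of calls within 1.5 times.

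The called genes do not overlap between the groups, so that leaving arrays out cannot turn their sign. Averaging a gene's probes kept the sign of 734 of 736. RT1-Bb turned there (-2.90, limma adjusted p = 0.0851). Of 126 named genes, 35 were called in all 6 fits without 1 array, and 6 in none of them (Lpal2, Semg1, Aurkb, Birc5, Kif20a and Cxcl12). A probe well above background on no array of a group has only a bound there.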

Other observations

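Some genes outside the lists and the leading 12 were also called, and they were chosen after their values were seen. Tfpi, an inhibitor of blood coagulation, fell by 2.58 on the log2 scale (SE 0.12, n = 3 arrays per group, limma adjusted p = 0.000172), and BPH against the same sham arrays gave -2.71. Fbp2, the muscle form of fructose bisphosphatase, fell by 4.86 (limma adjusted p = 0.000531). Stat5a, a transcription factor downstream of prolactin and growth hormone receptors, fell by 2.83 (limma adjusted p = 0.00253). Defb50, a defensin gene, fell by 4.67, and Mep1b, a secreted or membrane-bound metalloprotease, by 4.71 (limma adjusted p = 0.0176 and 0.00527).

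Among increases outside the lists, Lgals7 (galectin 7) was higher by 2.24 (SE 0.20, limma adjusted p = 0.00111) and Tfrc, the transferrin receptor, by 2.23 (limma adjusted p = 0.0258). Aqp9, a water and glycerol channel, was higher by 1.93 (limma adjusted p = 0.016). The replication and mitosis genes Pclaf, Kif20b and Timeless were higher by 2.50, 2.16 and 1.76 (limma adjusted p = 0.0176, 0.0165 and 0.00985), and BPH against sham gave 0.83, 0.50 and 0.55 for them.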
